A study of Homo sapiens with 6 samples.

Results

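The ZNF genes of chromosome 19 form a large group of zinc finger genes that lie in clusters along this chromosome. Their members were taken as the protein-coding rows of the deposited gene table on chromosome 19 whose symbol is ZNF followed by a number and at most 1 letter, which gave 230 of the 25838 genes listed. RNA of untreated Sup-PR cells (3 libraries), a prednisolone-resistant sub-clone, was compared with RNA of untreated Sup-B15 cells (3 libraries), the parental precursor B-cell acute lymphoblastic leukaemia line from which it was derived. Both lines are human, their source is labelled as blood, and both were grown in IMDM with fetal bovine serum, antibiotics and no drug treatment. Since a single sub-clone was set against a single parental line, the comparison takes in every difference between them, with or without a bearing on prednisolone. The libraries of each line are labelled as biological triplicates, but whether they came from separate cultures is not stated. The p-values therefore rest on library-to-library spread alone, part of which may be technical.

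Most of these genes encode Cys2His2 zinc finger proteins, in which an array of small zinc-binding fingers reads a DNA sequence. Many also carry a KRAB domain at the start of the protein, which binds the corepressor TRIM28 (also called KAP1). TRIM28 in turn brings the histone methyltransferase SETDB1 and heterochromatin proteins to the site, and much of this machinery holds down transposable elements. The genes arose by repeated tandem duplication, so that neighbours in a cluster are often close relatives.

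The 6 libraries held 16966569 to 26603422 counts, of which the ZNF genes took 0.378% to 0.401%. All 13 precursor B-cell markers reported here, such as CD79A, PAX5 and VPREB1, were over 1 FPKM (fragments scaled to gene length and library size) in every library. Together they summed to 3910 to 4490 FPKM in Sup-PR and to 4894 to 5687 FPKM in Sup-B15, most of it from IGLL1 and DNTT. Single markers differed more, with CD38 at 7.33 to 8.79 FPKM in Sup-PR and 27.6 to 29.4 FPKM in Sup-B15. CD24 was at 225 to 273 FPKM in Sup-PR and 535 to 582 FPKM in Sup-B15. RAG1, CD22, EBF1, MME, DNTT and PAX5 were also lower in every Sup-PR library than in any Sup-B15 library. IGLL1, CD79A, CD79B, VPREB1 and RAG2 overlapped between the lines. Of the T-cell markers 2 of 7 were in the table, CD8A and CD5, with at most 0.0609 FPKM summed in any library, and the erythroid marker ALAS2 was at most 0.159 FPKM. The 4 of 6 myeloid markers in the table summed to 1.28 to 1.91 FPKM in Sup-PR and 1.78 to 2.75 FPKM in Sup-B15, and the 2 stromal ones to 1.35 to 1.70 FPKM in Sup-PR and 1.52 to 1.64 FPKM in Sup-B15. NKG7, the 1 of 4 natural killer cell markers in the table and a granule gene of those cells, was at 24.1 to 25.2 FPKM in Sup-PR and 55.2 to 63.9 FPKM in Sup-B15, and the part of these marker differences in the results below was not tested. In bulk RNA, fewer cells with a transcript and less of it per cell cannot be told apart.

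The ZNF genes were mostly low but broadly present. Of the 230 genes, 224 had at least 1 count in every library. The median level of the 220 genes that passed the filter on low counts was 2.57 FPKM, beside 4.57 FPKM over all 14869 genes tested. The 10 genes that did not pass (ZNF556, ZNF177, ZNF426, ZNF625, ZNF585B, ZNF404, ZNF112, ZNF180, ZNF534 and ZNF578) reached at most 14 counts in any library.

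Summed over all 230 members, the level was nearly the same in each library. The sum was 3954, 3962 and 3963 CPM (counts scaled to library size) in Sup-PR, against 3859, 3869 and 3765 CPM in Sup-B15. The Sup-PR libraries were all above the Sup-B15 libraries, by a few percent: the means were 3960 ± 4.99 CPM in Sup-PR and 3831 ± 57.2 CPM in Sup-B15 (SD, n = 3 each). This order depended on the scaling: as a share of the unscaled counts the sum was 0.381% to 0.391% in Sup-PR and 0.378% to 0.401% in Sup-B15, with overlap.

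Single genes were called in both directions. Calls required an adjusted p under 0.05 (quasi-likelihood test of edgeR, Benjamini-Hochberg adjustment over all genes tested) together with a fold change above 1.5. By this rule 8 of the 220 ZNF genes tested were higher in Sup-PR, where 7.53% of all genes tested were called higher, and 16 were lower, where 15.4% of all genes were called lower. The share of higher among the called was 33.3% for the ZNF genes, and all genes were called 1120 higher and 2293 lower. In either direction this made 10.9% of the ZNF genes and 23.0% of all genes. The same share was 14.2% for 211 ZNF genes of other chromosomes and 21.8% for 680 other protein-coding genes of chromosome 19. With the adjusted p alone, 45 ZNF genes were higher and 40 lower (38.6%), beside 55.4% of all genes (28.0% higher and 27.4% lower). In 59 ZNF genes every Sup-PR library was above every Sup-B15 library and in 51 every one was below, which made 110 of 220, beside 61.1% of all genes (30.8% above and 30.3% below). Of the 24 genes called, 23 did not overlap between the lines, the exception being ZNF221. The calls were made from these same libraries, so the separation is no further support for them.

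The changes were also small in size. The median log2 fold change of the ZNF genes was 0.014, beside -0.013 for all genes, and it was below 0 with upper-quartile scaling (-0.044) or with library size alone (-0.055). For the ZNF genes the interquartile range ran from -0.23 to 0.22. The median size regardless of sign was 0.22 on the log2 scale, beside 0.33 for all genes. A change of over 2-fold was measured in 12 ZNF genes (5.46%), beside 12.5% of all genes. ZNF genes of other chromosomes were close to this, with a median size of 0.24 and 5.69% over 2-fold. Small changes were thus not particular to chromosome 19.

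A low level makes a fold change less certain, so the genes were also read by level. Among genes with a mean of under 50 counts, 7 of 26 ZNF genes were called (26.9%), beside 35.7% of all genes of that level. From 50 to 200 counts 6 of 48 were called (12.5%), beside 37.9%. From 200 to 500 counts 10 of 88 were called (11.4%), beside 22.4%. At 500 counts and over 1 of 58 was called (1.72%), beside 12.6%. The share of ZNF genes called was below that of all genes in each of the 4 ranges.

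**Figure D1:**
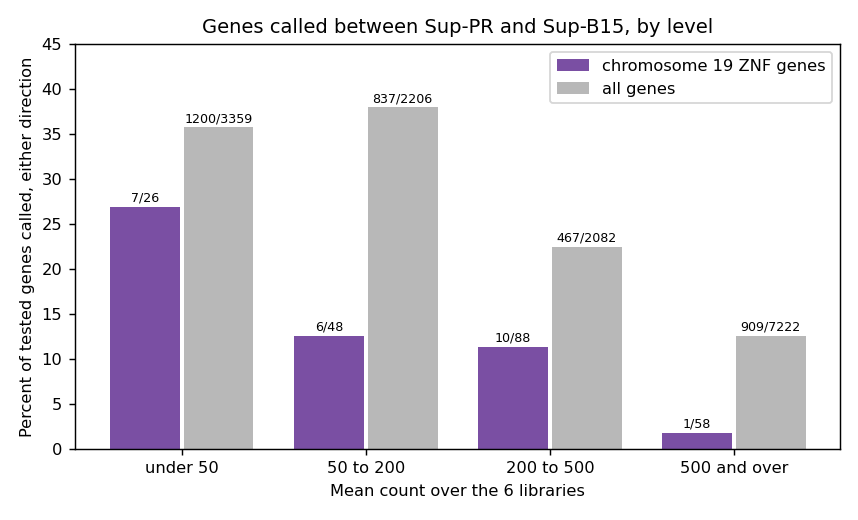
Percent of the genes tested that were called in either direction (y axis) by mean count over the 6 libraries (x axis), for chromosome 19 ZNF genes (purple) and all genes (grey), with the number called over the number tested above each bar. The share of ZNF genes called ran from 26.9% under 50 counts to 1.72% at 500 counts and over, and lay under the grey bar in each range.

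The most abundant ZNF genes did not reach the fold threshold. ZNF146, also called OZF, which consists almost only of zinc fingers and has no KRAB domain, had the highest level at 51.5 FPKM in Sup-PR and 42.8 FPKM in Sup-B15. It was at 218, 206 and 219 CPM in Sup-PR, against 179, 181 and 178 CPM in Sup-B15. The lines did not overlap, and the difference was small beside the fold threshold (log2 fold change 0.26, adjusted p = 4.3e-04 by edgeR). ZNF317, a KRAB zinc finger gene, was likewise separated at a small difference, with 70.6 ± 2.08 CPM in Sup-PR and 56.5 ± 1.98 CPM in Sup-B15 (SD, n = 3 each). The other 3 of the 5 highest, ZNF428, ZNF580 and ZNF787, overlapped between the lines, with log2 fold changes of -0.12, -0.03 and 0.13.

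Along the chromosome the 230 genes fell into 9 clusters, with 9 genes scattered outside them. A cluster here is a run of at least 5 ZNF genes whose neighbouring starts lie no more than 1 Mb apart, numbered from the short-arm end. Coordinates are those of the deposited table on GRCh38. Cluster 1 spans 2.82 to 2.94 Mb with 5 genes, cluster 2 spans 7.07 to 9.79 Mb with 14, and cluster 3 spans 11.48 to 12.64 Mb with 25. Cluster 4 holds 29 genes from 19.67 to 24.13 Mb on the short-arm side of the centromere. On the long arm, cluster 5 spans 34.68 to 34.96 Mb with 5 genes, cluster 6 spans 36.18 to 37.82 Mb with 26 and cluster 7 spans 43.53 to 45.08 Mb with 23. Cluster 8 spans 51.57 to 53.58 Mb with 39 genes, and cluster 9, next to the telomere, spans 55.48 to 58.48 Mb with 55.

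**Figure D2:**
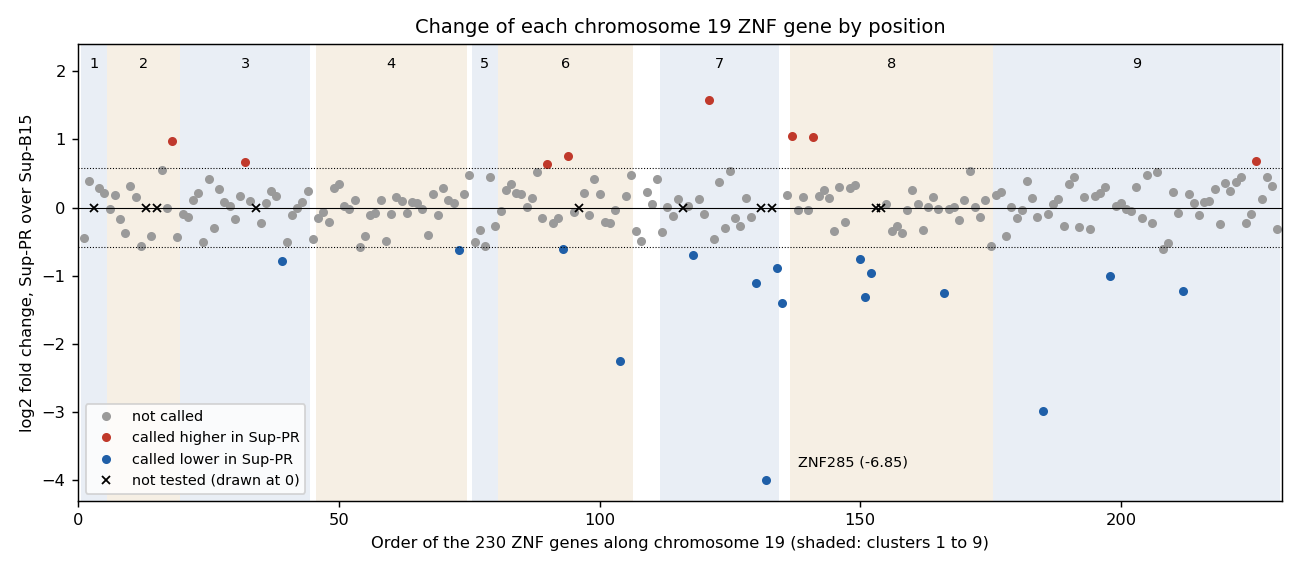
Log2 fold change of Sup-PR over Sup-B15 (y axis) for the 230 ZNF genes in their order along chromosome 19 (x axis), with clusters 1 to 9 shaded, genes called higher in red, genes called lower in blue, genes not called in grey and the 10 genes not tested as crosses at 0. Dotted lines mark a fold change of 1.5, ZNF285 at -6.85 is drawn at the lower edge of the plot, and the called genes stand among grey neighbours.

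The called genes were spread over 7 of the clusters. Cluster 7 had the highest share, with 1 gene higher and 4 lower of 20 tested, beside 23.0% of all genes. Clusters 6 and 8 had 4 of 25 (16.0%) and 6 of 37 (16.2%) called, 2 higher in each. Clusters 2, 3 and 9 had 1 of 12 (8.33%), 2 of 24 (8.33%) and 4 of 55 (7.27%). Cluster 4 had 1 of 29 called (3.45%), and clusters 1 and 5 had none by this rule, and by adjusted p alone 2 of 4 and 4 of 5 passed, beside 55.4% of all genes. The other protein-coding genes that lie inside the clusters were called in 14 of 68 cases (20.6%), 3 higher and 11 lower.

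**Figure D3:**
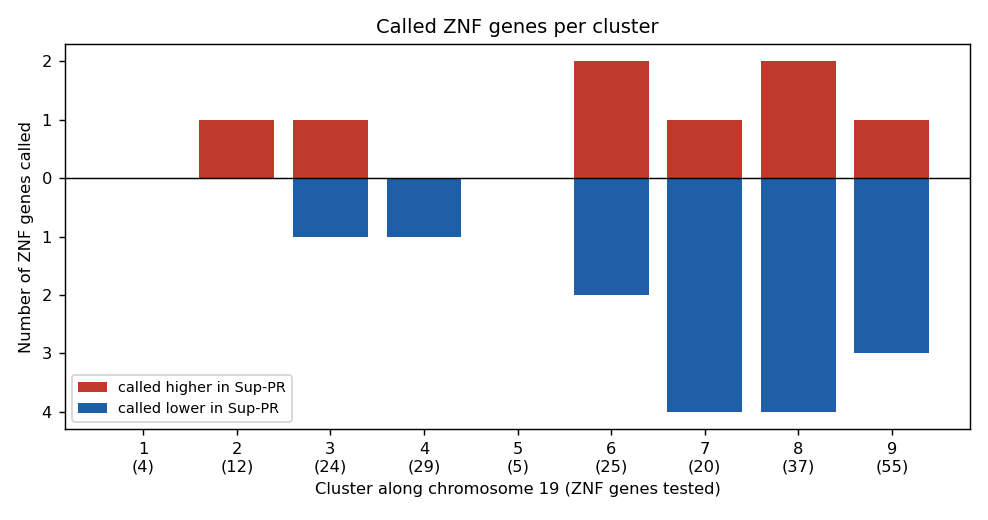
Number of ZNF genes called higher in Sup-PR (red, above the line) and lower in Sup-PR (blue, below the line) in each of the 9 clusters, with the number of genes tested in brackets. The lower calls lay mainly in clusters 6 to 9, which also hold most of the genes tested. Clusters 1 and 5, with only 4 and 5 genes tested, had no call.

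Neighbouring genes did not, as a rule, change together. In 202 pairs of tested neighbours within clusters, 88 pairs (43.6%) changed in the same direction. The log2 fold changes of neighbours correlated with Pearson's r of 0.135 and Spearman's rho of -0.066, a description across genes that are not independent and share libraries. Both genes were called in 5 of the pairs, in the same direction in 4 of them, where 10.9% of the ZNF genes were called and 16 of the 24 called were lower. The 4 pairs are not separate cases. They come from the runs ZNF233, ZNF285 and ZNF296, and ZNF610, ZNF880 and ZNF528. Pairs of neighbours among all genes were not counted, so no excess can be read from these pairs.

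The gene furthest lower in Sup-PR was ZNF285 (ENSG00000267508, chromosome 19 from 44382298 to 44401608, minus strand), in cluster 7. Its RNA was almost undetected in Sup-PR, with 0, 1 and 0 counts, against 43, 68 and 45 counts in Sup-B15. In CPM this was 0, 0.0435 and 0 in Sup-PR, against 2.46, 2.47 and 2.37 in Sup-B15. Each Sup-B15 library thus had the transcript and 2 of the 3 Sup-PR libraries had no count of it. The ratio of Sup-B15 to Sup-PR, scaled for library size, was 159, with a 95% exact interval of 28.1 to 6317 that covers counting error only (adjusted p = 2.2e-07 by edgeR). The fitted log2 fold change of -6.85 depends on the prior count.

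ZNF582 and ZNF781 were low in Sup-PR as well. ZNF582 (ENSG00000018869, from 56375846 to 56393545, minus strand, cluster 9), whose promoter DNA is known as a methylation marker in cervical and oral cancer, had 2, 5 and 2 counts in Sup-PR, against 23, 30 and 19 counts in Sup-B15. The lines did not overlap (log2 fold change -2.98, standard error 0.44, adjusted p = 6.3e-05 by edgeR). ZNF781 (ENSG00000196381, from 37667751 to 37692322, minus strand, cluster 6) had 8, 7 and 7 counts in Sup-PR, against 37, 45 and 22 counts in Sup-B15 (log2 fold change -2.25, standard error 0.36, adjusted p = 1.2e-04). ZNF285, ZNF582 and ZNF781 passed the filter on low counts through the Sup-B15 libraries only, so their place among the genes tested required a difference, as for 589 genes in all. A stretch of 9.4% of the exons of ZNF781 overlaps ZFP30 on the same strand.

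**Figure D4:**
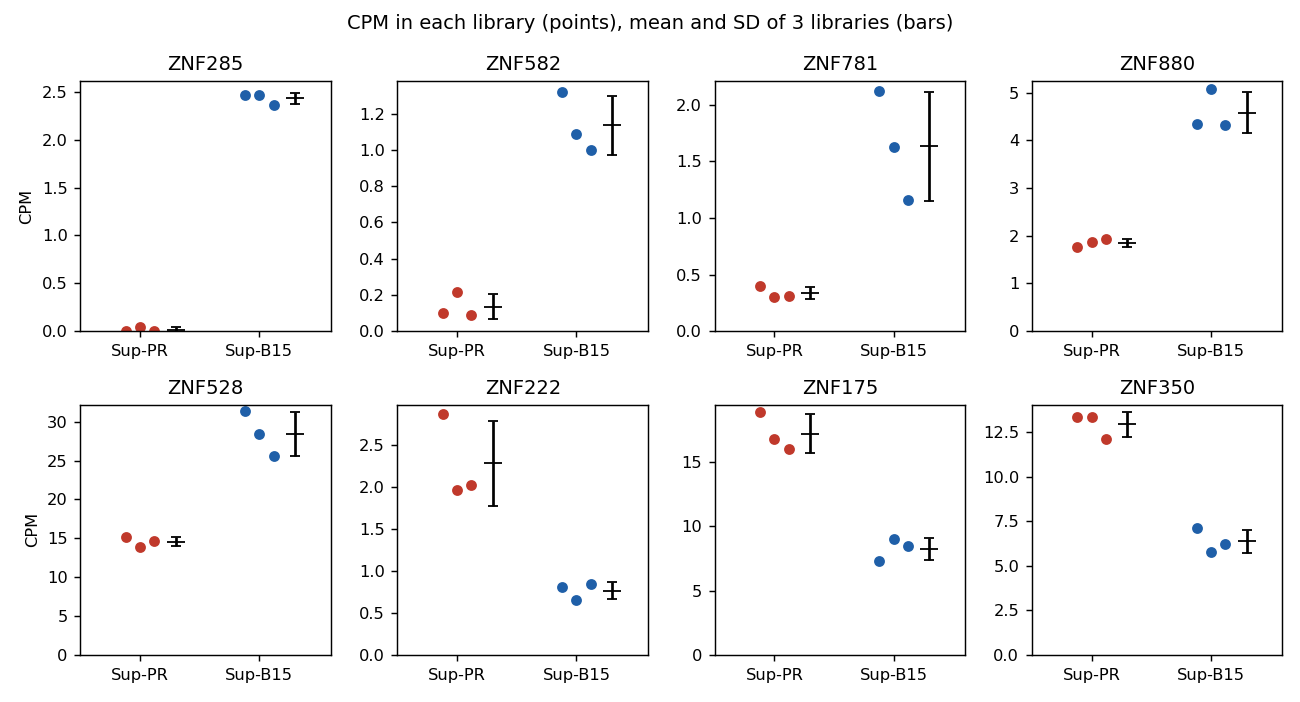
CPM in each library (points) with the mean and SD of 3 libraries (bars) for 8 of the called ZNF genes, Sup-PR in red and Sup-B15 in blue, each panel with its own axis from 0. The points of the lines do not overlap in any of the 8 panels, and ZNF285 in Sup-PR lies at or next to 0. The 8 genes were taken from those called in these same libraries, so the separation is no further support for their calls.

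Promoter sequences are shown here for the genes furthest lower and furthest higher, ZNF285 and ZNF222, and for ZNF880 and ZNF528, which are neighbours that both fell. Each runs 5′ to 3′ on the strand of its gene, from 250 bases before to 50 bases after the RefSeq start on GRCh38.p14, and capitals mark the ETS core CCGGAAG or its reverse complement CTTCCGG. ZNF285 lies at chr19:44401559-44401858 (minus strand), ZNF222 at chr19:44025129-44025428, ZNF880 at chr19:52369673-52369972 and ZNF528 at chr19:52397599-52397898 (plus strand for these 3).
ZNF285: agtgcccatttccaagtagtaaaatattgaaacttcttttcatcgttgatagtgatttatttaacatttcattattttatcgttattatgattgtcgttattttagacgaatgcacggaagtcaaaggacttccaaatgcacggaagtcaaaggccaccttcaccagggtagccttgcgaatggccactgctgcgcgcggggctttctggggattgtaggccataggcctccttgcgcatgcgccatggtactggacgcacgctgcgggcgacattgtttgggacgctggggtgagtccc
ZNF222: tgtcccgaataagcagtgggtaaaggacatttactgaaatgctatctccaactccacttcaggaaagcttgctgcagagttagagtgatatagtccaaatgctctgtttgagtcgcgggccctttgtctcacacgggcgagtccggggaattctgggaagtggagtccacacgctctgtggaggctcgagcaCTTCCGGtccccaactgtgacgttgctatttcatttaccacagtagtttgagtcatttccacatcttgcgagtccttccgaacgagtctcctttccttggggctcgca
ZNF880: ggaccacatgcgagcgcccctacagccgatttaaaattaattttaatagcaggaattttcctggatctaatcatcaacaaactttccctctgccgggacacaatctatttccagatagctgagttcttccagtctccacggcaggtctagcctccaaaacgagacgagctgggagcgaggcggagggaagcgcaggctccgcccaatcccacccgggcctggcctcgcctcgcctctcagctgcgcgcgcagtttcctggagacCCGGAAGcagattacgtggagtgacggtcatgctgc
ZNF528: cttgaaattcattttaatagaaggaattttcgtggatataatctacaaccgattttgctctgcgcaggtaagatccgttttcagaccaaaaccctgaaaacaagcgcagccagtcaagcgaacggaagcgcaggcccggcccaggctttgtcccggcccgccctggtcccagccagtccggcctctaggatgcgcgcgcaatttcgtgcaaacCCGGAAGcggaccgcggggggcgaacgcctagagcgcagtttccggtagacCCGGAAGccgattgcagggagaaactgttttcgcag
ZNF285 holds 0 copies of the core, ZNF222 and ZNF880 hold 1 each and ZNF528 holds 2.

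In cluster 8, 3 genes in a row fell. ZNF610, ZNF880 and ZNF528 lie on the plus strand from 52336245 to 52418412, with 2139 bases between ZNF610 and ZNF880 and 12054 bases between ZNF880 and ZNF528. ZNF610 (ENSG00000167554) was at 5.73, 4.65 and 4.30 CPM in Sup-PR, against 7.90, 8.56 and 8.26 CPM in Sup-B15. ZNF880 (ENSG00000221923) was at 1.76, 1.87 and 1.93 CPM in Sup-PR, against 4.35, 5.08 and 4.31 CPM in Sup-B15. ZNF528 (ENSG00000167555) was at 15.2, 13.9 and 14.7 CPM in Sup-PR, against 31.3, 28.4 and 25.6 CPM in Sup-B15. None of the 3 genes overlapped between the lines. Their log2 fold changes were -0.76, -1.31 and -0.96, with adjusted p of 4.1e-04, 3.7e-05 and 1.0e-06 by edgeR. ZNF610 and ZNF880 were not called in a fit on log2(FPKM + 1). ZNF610 was also not called in edgeR's test against a 1.5-fold change (adjusted p = 0.23). At most 0.8% of the 50-base stretches of the transcripts of these 3 genes also occur in other genes, so few reads could be shared between them. The promoters of ZNF880 and ZNF528 printed above were identical at 54.3% of aligned positions, beside a median of 54.1% over 112 pairs of neighbours with a promoter.

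The other pairs of called neighbours were of a different kind. In cluster 7, ZNF233, ZNF285 and ZNF296 follow one another among the genes tested and all fell, but 106981 bases separate ZNF233 and ZNF285, which lie on opposite strands, and 669892 bases separate ZNF285 and ZNF296. ZNF296, a zinc finger gene known in mice for work on pluripotent stem cells, was at 12.3, 10.1 and 10.5 CPM in Sup-PR, against 18.6, 19.4 and 22.5 CPM in Sup-B15 (log2 fold change -0.88, adjusted p = 1.1e-05 by edgeR). In cluster 6, ZNF568 and ZNF420 lie 9157 bases apart on the plus strand and were called in opposite directions. ZNF568, whose mouse counterpart represses a placental transcript of Igf2, was at 2.86, 2.78 and 2.24 CPM in Sup-PR, against 3.95, 3.59 and 4.58 CPM in Sup-B15 (log2 fold change -0.61, adjusted p = 0.013). ZNF420, also called APAK, a KRAB protein known as a negative regulator of p53, was at 14.3, 15.8 and 15.5 CPM in Sup-PR, against 9.68, 8.88 and 8.63 CPM in Sup-B15 (log2 fold change 0.75, adjusted p = 2.4e-05). ZNF420 was thus separated by a wide margin, while the call of ZNF568 was lost without Sup-PR replicate 3 (log2 fold change -0.52) or without Sup-B15 replicate 3 (-0.53). The call of ZNF420 was lost in a fit on log2(FPKM + 1) (0.56) and in edgeR's test against a 1.5-fold change (adjusted p = 0.12). ZNF568 was not called in that test either.

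Of the genes that were higher in Sup-PR, ZNF222 (ENSG00000159885, from 44025342 to 44033112, plus strand, cluster 7) had the largest fold. It was at 2.86, 1.96 and 2.02 CPM in Sup-PR, against 0.802, 0.653 and 0.842 CPM in Sup-B15. The lines did not overlap (log2 fold change 1.58, standard error 0.28, adjusted p = 2.9e-04 by edgeR), at 45 to 57 counts a library in Sup-PR and 14 to 18 counts in Sup-B15. Of its exons 17.2% overlap another annotated gene on the same strand, AC067968.1.

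ZNF175 and ZNF350, both in cluster 8, had about the same fold change. ZNF175 (ENSG00000105497, from 51571298 to 51592508, plus strand), also called OTK18 and known from macrophages as a suppressor of HIV transcription, was at 18.9, 16.8 and 16.0 CPM in Sup-PR, against 7.33, 8.99 and 8.47 CPM in Sup-B15 (log2 fold change 1.05, adjusted p = 2.9e-06 by edgeR). ZNF350 (ENSG00000256683, from 51964343 to 51986856, minus strand), also called ZBRK1, a KRAB repressor that binds BRCA1, was at 13.4, 13.3 and 12.1 CPM in Sup-PR, against 7.10, 5.80 and 6.21 CPM in Sup-B15 (log2 fold change 1.03, adjusted p = 5.6e-06). Both kept their call in every other setting tried. ZNF562 in cluster 2 was at 24.96, 23.7 and 26.2 CPM in Sup-PR, against 13.5, 13.3 and 11.2 CPM in Sup-B15 (log2 fold change 0.98, adjusted p = 1.2e-06), and 18.9% of its exon bases are also covered by ZNF561-AS1 on the opposite strand. Since it is not stated whether the counting used strand, reads of ZNF562 and ZNF561-AS1 may not be told apart.

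The other higher calls were smaller. ZNF584 in cluster 9 and ZNF844 in cluster 3 had log2 fold changes of 0.69 and 0.67, and neither overlapped between the lines. ZNF790 in cluster 6, with a log2 fold change of 0.64, lost its call without Sup-PR replicate 2 (0.58) or without Sup-B15 replicate 1 (0.58).

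The lower calls also took in genes at moderate level. ZNF772 in cluster 9 was at 8.49, 9.78 and 11.1 CPM in Sup-PR, against 19.99, 18.9 and 20.2 CPM in Sup-B15 (log2 fold change -1.005, adjusted p = 2.7e-06 by edgeR). ZNF552, also in cluster 9, was at 2.66, 1.83 and 2.28 CPM in Sup-PR, against 5.10, 5.51 and 5.05 CPM in Sup-B15 (log2 fold change -1.22, adjusted p = 7.1e-05). Both genes kept their call in every other setting tried. ZNF681, the single gene called in cluster 4, averaged 20.5 ± 2.52 CPM in Sup-PR and 31.5 ± 1.44 CPM in Sup-B15 (SD, n = 3 each), and was no longer called without Sup-PR replicate 3 (log2 fold change -0.55).

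At low level, ZNF114, one of the scattered genes, had 23, 24 and 17 counts in Sup-PR, against 49, 82 and 38 counts in Sup-B15 (log2 fold change -1.40, adjusted p = 4.9e-04 by edgeR). ZNF415 in cluster 8 had 12, 11 and 18 counts in Sup-PR, against 23, 42 and 32 counts in Sup-B15 (log2 fold change -1.26, adjusted p = 0.0033). ZNF233 in cluster 7 had 13, 12 and 9 counts in Sup-PR, against 21, 28 and 23 counts in Sup-B15 (log2 fold change -1.11, adjusted p = 0.011), and was not called by DESeq2. All 3 were separated between the lines in CPM but rest on few reads. ZNF799 in cluster 3 had a log2 fold change of -0.79, and 24.1% of the 50-base stretches of its transcripts also occur in other genes, chiefly ZNF443. ZNF221 in cluster 7 overlapped between the lines, at 1.56, 2.39 and 1.70 CPM in Sup-PR against 3.55, 3.37 and 2.21 CPM in Sup-B15. Its log2 fold change of -0.69 lost the call without Sup-PR replicate 1 (-0.58) or 3 (-0.63), and without Sup-B15 replicate 1 (-0.59) or 2 (-0.60).

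In cluster 5, 4 of the 5 genes were lower by adjusted p, beside 27.4% of all genes, and none of them reached the fold threshold. ZNF302 was at 32.7, 33.4 and 27.7 CPM in Sup-PR, against 48.0, 40.6 and 44.4 CPM in Sup-B15 (log2 fold change -0.50, adjusted p = 2.3e-04 by edgeR). ZNF181, ZNF599 and ZNF792 also passed the adjusted p, with log2 fold changes of -0.33, -0.56 and -0.27. ZNF30 lies in the same cluster and had a log2 fold change of 0.45 (adjusted p = 0.054). Summed over the 5 genes, the level was 58.9 to 63.9 CPM in Sup-PR and 74.9 to 82.7 CPM in Sup-B15. These genes were named after their values had been seen.

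Cluster 4, which holds primate-expanded KRAB genes, had the highest median level of the 9 clusters, 4.69 FPKM. Its summed level of 858 to 921 CPM in Sup-PR overlapped that of 894 to 923 CPM in Sup-B15. ZNF91 and ZNF93, which are known as repressors of SVA and L1 retrotransposons, lie in it and were named for those roles after their values had been seen. ZNF91 was at 58.9, 65.7 and 70.3 CPM in Sup-PR, against 58.5, 60.9 and 60.0 CPM in Sup-B15, with overlap and a log2 fold change of 0.12 (adjusted p = 0.15 by edgeR). ZNF93 averaged 43.5 ± 2.54 CPM in Sup-PR and 34.2 ± 2.08 CPM in Sup-B15 (SD, n = 3 each), with a log2 fold change of 0.35 (adjusted p = 0.0010), under the fold threshold. ZNF274, a gene of cluster 9 whose protein is known to bring SETDB1 to the ends of other ZNF genes, was named in the same way and averaged 26.6 ± 1.74 CPM in Sup-PR and 22.4 ± 1.32 CPM in Sup-B15 (log2 fold change 0.24, adjusted p = 0.021).

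The promoters showed how alike the genes of cluster 4 are. RefSeq promoters were found for 204 of the 230 genes, and 168 of them began within 500 bases of the start in the deposited table. The median identity between pairs of these promoters was 75.7% within cluster 4 and 51.1% to 56.1% within each of the other clusters, beside 50.6% over all pairs of members. The most alike pair was ZNF714 and ZNF431, neighbours in cluster 4, at 91.0%. They are printed in the same way, from chr19:21081953-21082252 for ZNF714 and chr19:21141790-21142089 for ZNF431, both on the plus strand, to show 2 near-copies whose RNA was measured at different changes.
ZNF714: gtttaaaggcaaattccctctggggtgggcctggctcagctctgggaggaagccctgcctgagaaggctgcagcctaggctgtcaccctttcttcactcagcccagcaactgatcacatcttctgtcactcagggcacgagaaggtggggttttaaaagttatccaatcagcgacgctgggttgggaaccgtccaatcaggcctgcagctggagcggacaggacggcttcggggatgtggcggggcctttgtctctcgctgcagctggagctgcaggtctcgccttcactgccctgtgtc
ZNF431: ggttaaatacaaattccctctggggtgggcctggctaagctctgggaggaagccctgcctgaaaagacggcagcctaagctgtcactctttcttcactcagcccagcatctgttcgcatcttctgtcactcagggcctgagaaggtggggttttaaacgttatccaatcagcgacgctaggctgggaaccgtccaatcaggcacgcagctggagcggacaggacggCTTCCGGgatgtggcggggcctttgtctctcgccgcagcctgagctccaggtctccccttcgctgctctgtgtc
ZNF714 holds 0 copies of the ETS core and ZNF431 holds 1. ZNF714 was at 41.2, 45.6 and 45.7 CPM in Sup-PR, against 65.1, 64.4 and 57.2 CPM in Sup-B15, without overlap (log2 fold change -0.49, adjusted p = 4.3e-05 by edgeR). ZNF431 was at 54.7, 60.5 and 53.7 CPM in Sup-PR, against 62.1, 60.4 and 57.0 CPM in Sup-B15, with overlap (log2 fold change -0.09, adjusted p = 0.27). The difference between their changes was not tested, and both were named after their values had been seen.

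Short motifs were counted in the 168 promoters on both strands. The ETS core CCGGAAG, the binding letters of a large family of activators, was in 81 of them (48.2%), beside 18.4% of 9176 promoters of protein-coding genes of the same length. CCAAT, the letters read by the factor NF-Y, was in 93 (55.4%), beside 36.8%. The GC box GGGCGG was in 114 (67.9%), beside 67.9% of all, and TATAAA was in 3 (1.79%), beside 6.32%. The palindromic consensus of the glucocorticoid response element, searched for without a mismatch, occurred in 0 of the ZNF promoters and in 0 of all. With no match in any promoter, this search cannot tell the ZNF promoters from others or show that receptor sites are absent. Related promoters share letters by descent, so the 168 are not independent. Among called genes the ETS core was in 2 of 6 promoters of genes called higher and in 5 of 10 of genes called lower.

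The partners of KRAB proteins were measured in the same libraries through a list of 29 genes, all of which were tested. None was called (0 of 29, beside 23.0% of all genes). The list had a median of 3089 counts, and of all genes at 500 counts and over 12.6% were called. By adjusted p alone 5 of the 29 were higher and 10 lower (51.7%, beside 55.4% of all genes and 65.7% at that level). The median log2 fold change of the list was -0.07. TRIM28, the corepressor itself, was at 732, 732 and 724 CPM in Sup-PR, against 685, 650 and 669 CPM in Sup-B15. In these scaled values it was slightly higher in every Sup-PR library (log2 fold change 0.13, adjusted p = 0.045 by edgeR). The order depended on the scaling. As a share of unscaled counts, Sup-PR replicate 3 (16165 of 23216874) lay below Sup-B15 replicate 1 (11961 of 16966569), so the lines overlapped. SETDB1, the histone methyltransferase that TRIM28 recruits, averaged 51.2 ± 3.33 CPM in Sup-PR and 56.9 ± 4.53 CPM in Sup-B15 (log2 fold change -0.16, adjusted p = 0.085). The largest differences in the list were those of the histone deacetylases HDAC2 (log2 fold change 0.38) and HDAC1 (-0.37), in opposite directions, and of ATF7IP (0.37), a partner of SETDB1, and MPHOSPH8 (-0.34), a subunit of the HUSH silencing complex. Among 12 tested zinc finger genes of chromosome 19 with other names, such as the ZFP and ZSCAN genes, MZF1 was called lower, at 15.5 ± 3.80 CPM in Sup-PR and 27.2 ± 5.25 CPM in Sup-B15 (SD, n = 3 each), with a log2 fold change of -0.82 (adjusted p = 0.0048), and none was called higher.

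Close relatives can share reads, which limits the count of single genes. The share of 50-base stretches of a member's transcripts that also occur in other genes had a median of 4.85% and ran from 0% to 86.8%. It was over 25% in 25 of the 230 members, of which 0 were called, beside 10.9% of the ZNF genes tested and 23.0% of all genes. Some of these 25 members were not tested, such as ZNF177 (86.8%) and ZNF625 (81.4%). At the share of the ZNF genes few calls would fall in a group of that size, so the 0 says little about read sharing. The called genes ZNF799 (24.1%) and ZNF562 (22.7%) lay just under 25%. The exons of 78 members overlap another gene on the same strand, and those of 73 overlap one on the opposite strand.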

How the data were processed

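RNA of 3 Sup-PR and 3 Sup-B15 libraries was compared. Samples were mapped by the line name and number in their titles, which each match 1 set of columns in the deposited table, and 0 columns of per-sample values were left unmapped. HISAT2 was used to map the read pairs for the authors. The submitters' processing notes name the build GRCh38.p12, CASAVA and DESeq2, without versions, and the paper's methods also name edgeR. The sources used here do not name the counting program or its strand setting. The authors deposited raw counts per gene, which were used for all main results. They also deposited FPKM, which were used for levels between genes and for an alternative. The authors also deposited a signal column per library, which holds counts divided by a size factor, and their own log2 fold changes with p-values. Neither was used.

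The members and the gene lists were chosen with earlier results of these data known. Libraries held 16966569 to 26603422 counts. Genes were filtered with edgeR's filterByExpr, scaled by TMM, and fitted over the whole table with its robust quasi-likelihood model, with Benjamini-Hochberg adjustment over 14869 genes. Calls required an adjusted p under 0.05 together with a fold above 1.5. CPM were counts divided by the library size after TMM scaling. Intervals cover counting error only. Members were sorted by start, a gap over 1 Mb opened a new cluster, and groups of at least 5 members were called clusters. Genes were named by rule: up to 10 called higher and 15 called lower by fold change with a mean of at least 20 counts in the higher line, up to 2 per cluster and direction by adjusted p, any member with no counts in 1 line and a mean of at least 10 in the other, the 5 highest by FPKM, and the lists, of which 1 precursor B-cell marker is not reported here. Others were named after their values had been seen, as stated where they appear. Transcripts of GENCODE release 29, whose coordinates matched 230 of 230 members, were searched for stretches of 50 bases that other genes share. Promoters came from RefSeq (GRCh38.p14), 250 bases before to 50 after a start, and were used where that start lay within 500 bases of the start in the table.

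The fit was tested on simulated counts and repeated under other scalings, filters, thresholds and tools, with each library left out and with the replicate number as a block. The software used was R 4.3.3, edgeR 4.0.16, DESeq2 1.42.0, limma 3.58.1, Python 3.11.15, SciPy 1.17.1, numpy 2.4.6, pandas 2.3.3, matplotlib 3.10.9.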

Additional observations from a re-analysis of the deposited data

How the results depend on the processing

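The fit was repeated under other scalings (RLE, upper quartile, library size alone), with DESeq2, with limma-voom and with the replicate block. It was also repeated with no filter on low counts, at least 10 counts in every library and protein-coding genes only. In these fits 7 to 8 ZNF genes were called higher and 14 to 21 lower. The shares of all genes called ran from 4.29% to 7.63% higher and from 8.62% to 17.4% lower. The lowest were with DESeq2, where 8 of 230 ZNF genes were called higher and 14 lower. DESeq2 and the fit with no filter (4.71% and 10.8% of all genes) kept genes of low count that the main fit had filtered out. Their shares of all genes were thus taken over more genes than the 14869 of the main fit. For this reason they cannot be set beside the shares of the main fit. The median log2 fold change of the ZNF genes was -0.044 with upper-quartile scaling and -0.055 with library size alone. It was 0.073 on log2(FPKM + 0.1), where 7 were called lower, beside 10.8% of all genes. On log2(FPKM + 1), 2 were called higher and 4 lower, beside 5.30% and 7.92% of all genes. Both FPKM settings tested 173 of the ZNF genes, since an FPKM of at least 1 in 3 libraries was required, and 9 of the 16 genes called lower and 1 of the 8 called higher were not among them. Counts followed the threshold, with 45 higher and 40 lower by adjusted p alone, beside 28.0% and 27.4% of all genes. At a fold over 2 they were 3 and 9, beside 2.57% and 9.52%. A test against 1.5-fold gave 4 and 9, beside 3.26% and 8.86%. Leaving out 1 library gave 7 to 10 higher, 15 to 20 lower and a median of -0.006 to 0.041. Of all genes, 6.62% to 7.85% were then called higher and 13.8% to 16.9% lower. ZNF580, which was not called, had log2 fold changes from -0.068 without Sup-PR replicate 1 to 0.007 without Sup-PR replicate 2. The causes were not tested. A gap of 0.5 Mb gave 11 clusters and a gap of 2 Mb gave 6.

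Of the 24 genes called, 20 lost no call when 1 library was left out, and 11 kept it in each fit that tested them at a fold over 1.5. Of these, 9 were also over 2-fold, ZNF296 and ZNF528 being the exceptions. ZNF285, ZNF582 and ZNF781 are in both counts, though their place among the genes tested required a difference. They were not tested with at least 10 counts in every library or on FPKM. ZNF681 was no longer called without Sup-PR replicate 3 (log2 fold change -0.55), ZNF790 without Sup-PR replicate 2 or Sup-B15 replicate 1 (0.58 each), and ZNF568 without Sup-PR replicate 3 (-0.52) or Sup-B15 replicate 3 (-0.53), in each case because the fold fell under 1.5. ZNF221 lost its call without Sup-PR replicate 1 or 3, without Sup-B15 replicate 1 or 2, and in DESeq2, which also did not call ZNF233. ZNF420, ZNF610, ZNF584 and ZNF844 lost theirs on log2(FPKM + 1) and in the test against 1.5-fold. ZNF562 and ZNF880 lost it on log2(FPKM + 1) alone, and ZNF799 and ZNF415 in the test against 1.5-fold alone. ZNF221, ZNF233, ZNF568, ZNF681 and ZNF790 were not called in that test either.

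The deviations of same-numbered libraries from their line means correlated at 0.134, -0.064 and 0.196. Those of differently numbered libraries correlated at -0.25 to 0.153. Whether the replicate numbers pair the libraries cannot be told from these few values. With the number as a replicate block, 8 ZNF genes were called higher and 16 lower, beside 7.63% and 16.0% of all genes. The median of the ZNF genes was then 0.015.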
